A study of Mus musculus with 24 samples.

Results

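Genes of the mouse Toll-like receptor family and of the TLR4 co-receptors CD14 and MD-2 were measured in elicited peritoneal macrophages, bone marrow-derived macrophages and splenic B cells before and after a TLR4 agonist. The 10 genes were Tlr1, Tlr2, Tlr3, Tlr4, Tlr5, Tlr6, Tlr7, Tlr9, Cd14 and Ly96. They were chosen by gene name and are 10 of the 21597 gene symbols on the array, carried by 12 of its 41174 probes. All 10 passed the filter on dim probes and stood among the 17345 genes tested.

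Expression was profiled in C57BL/6 mouse cells on 12 Agilent 2-colour arrays, each of which held 1 condition, with biological replicate 1 labelled with Cy5 and biological replicate 2 with Cy3, giving 2 values in each of 12 groups. Thioglycollate-elicited peritoneal macrophages (EPM) were left untreated, treated with Kdo2 lipid A (KLA, a defined TLR4 agonist) for 1 h or 12 h, or given DMSO vehicle for 12 h. Bone marrow-derived macrophages (BMDM) received KLA or DMSO for 1 h or 12 h, and resting splenic B cells, from which cells carrying CD43 or CD11b had been removed with magnetic beads, had the same 4 groups as EPM. Thus the early control was untreated in EPM and B cells but DMSO at 1 h in BMDM, and the vehicle was part of the 1 h comparison in EPM and B cells. All values below are log2 normalized intensities, with the Cy5 replicate given before the Cy3 replicate, and a difference of 1 on this scale is a 2-fold change.

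Toll-like receptors are membrane proteins of innate immune cells that recognise microbial products. TLR2 pairs with TLR1 or TLR6 at the cell surface to bind bacterial lipopeptides, TLR4 binds lipopolysaccharide together with MD-2, which is encoded by Ly96, after CD14 has delivered the ligand, and TLR5 binds flagellin. TLR3, TLR7 and TLR9 sit in endosomes and recognise double-stranded RNA, single-stranded RNA and unmethylated CpG DNA, respectively. Most of these receptors signal through the adaptor MyD88, TLR3 signals through TRIF, and TLR4 uses both routes, which activate NF-kappaB and interferon regulatory factors.

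RefSeq promoter entries (GRCm38.p6) were found for 6 of the 10 genes and covered 8 start sites. The 250 bases upstream of each start were searched on both strands for the NF-kappaB site, the interferon-stimulated response element core GAAANNGAAA, the PU.1 motif GAGGAAGT, the AP-1 motif TGANTCA and the TATA box TATAAA. An NF-kappaB match, held by 3.9% of 32851 promoters of this length, was present upstream of Tlr2, 173 to 163 bases before the start, and upstream of Tlr3, 211 to 202 bases before the start. A response element core, held by 2.98% of promoters, was present upstream of 1 start site of Tlr6, 116 to 101 bases before the start. These 3 stretches are shown because their genes had KLA changes of over 2-fold and because the windows held the letters of KLA-responsive factor sites, which are in capitals. The Tlr2 stretch holds 3 overlapping matches, 2 on the strand of the gene and 1 opposite, and the Tlr6 stretch 2 overlapping matches opposite to the gene, written as their reverse complement. The remaining matches, which overlapped no other motif, were PU.1 at 1 start site of Tlr1, the TATA box opposite to the gene at the other start site of Tlr6 and AP-1 upstream of Tlr9, held by 2.44%, 12.4% and 6.75% of promoters. A match is a description of the letters and not evidence of binding. The stretches lie at chr3:83841609-83841858 for Tlr2, chr8:45410381-45410630 for Tlr3 and chr5:64959167-64959416 for Tlr6, all on the minus strand, and are written 5′ to 3′ toward the start.
Tlr2: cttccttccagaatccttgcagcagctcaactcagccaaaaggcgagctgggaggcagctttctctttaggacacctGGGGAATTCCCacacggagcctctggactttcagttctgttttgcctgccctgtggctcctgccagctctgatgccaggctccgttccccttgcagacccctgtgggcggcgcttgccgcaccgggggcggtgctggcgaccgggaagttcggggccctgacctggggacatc
Tlr3: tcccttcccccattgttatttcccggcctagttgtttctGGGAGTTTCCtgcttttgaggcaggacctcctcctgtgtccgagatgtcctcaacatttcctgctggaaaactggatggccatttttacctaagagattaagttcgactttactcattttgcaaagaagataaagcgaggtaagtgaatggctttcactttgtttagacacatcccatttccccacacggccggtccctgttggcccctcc
Tlr6: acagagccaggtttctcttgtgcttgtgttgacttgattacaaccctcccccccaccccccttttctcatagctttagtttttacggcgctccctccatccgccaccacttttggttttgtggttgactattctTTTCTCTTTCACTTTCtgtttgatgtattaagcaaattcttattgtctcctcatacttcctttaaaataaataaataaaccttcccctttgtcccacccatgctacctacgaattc

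Between 57.4% and 65.0% of probes were well above background in a channel, no spot of the 10 genes was saturated, and the SD between the 2 replicates of a group had a median of 0.051 over the 120 values of these genes. Both replicates of a group shared an array, so array and condition cannot be told apart, and neither can cell types and slides, since each slide carried 1 cell type. The small SD leaves out differences between arrays. All 9 B cell markers listed were well above background in every B cell group, and all 9 macrophage markers on the array were so in every EPM and BMDM group, against 4 to 5 of 9 in B cells, where Itgam, Fcgr1 and Msr1 were among those not well above background. Of 6 neutrophil markers on the array, 6 were above background in BMDM, 4 in EPM and 1 to 2 in B cells. In the authors' table of normalized values, 20 of 24 columns resembled most the scanner channel of the same sample (r of 0.950 to 0.991), but the 4 columns of B cells at KLA 1 h and DMSO 12 h were closest to each other's scanner channels (r of at least 0.965) and ran against their own (-0.75 to -0.69). The labels of these B cell arrays are therefore unsettled, and B cell results are given as labelled and with the 2 labels exchanged.

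In cells without KLA, most of the 10 genes stood higher in macrophages than in B cells. EPM exceeded B cells for 9 genes and fell below them for Tlr1, so that 10 of 10 differed against 77.2% of all genes (38.6% higher and 38.6% lower). BMDM exceeded B cells for 9 genes, and Tlr9 did not pass the test, against 76.6% of all genes (39.1% higher and 37.5% lower). The difference was over 2-fold for 6 genes in EPM and 8 in BMDM, against 33.2% and 31.2% of all genes, and the median difference was 1.67 and 1.85, against 0.0074 and 0.026 over all genes. Between the macrophages, 7 of 10 genes differed (all genes, 57.8%): 6 were lower in EPM (all genes, 29.3%) and Tlr6 was higher (all genes, 28.5%). Of these, 4 were over 2-fold lower in EPM, against 10.5% of all genes over 2-fold in either direction.

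Cd14, the surface protein that hands lipopolysaccharide to TLR4, read 12.82 and 12.83 in EPM, 13.89 and 14.15 in BMDM and 6.66 and 6.66 in B cells. All macrophage values lay far above those of B cells, and the difference was 6.17 for EPM (71.8-fold, SE 0.098, adjusted p = 2.72e-20) and 7.36 for BMDM (164-fold, SE 0.098, adjusted p = 2.48e-21). The 2 macrophage types did not overlap, and EPM stood 2.28-fold below BMDM (adjusted p = 5.51e-09). Tlr4, the lipid A receptor itself, read 9.87 and 9.82 in EPM, 9.95 and 9.79 in BMDM and 7.16 and 7.21 in B cells. It was 6.31-fold higher in EPM and 6.43-fold higher in BMDM than in B cells (adjusted p = 2.02e-17 and 2.07e-17), while the EPM minus BMDM difference was -0.026 with a 95% interval of -0.16 to 0.11. Ly96, which encodes the lipid-binding partner MD-2, read 11.25 and 11.09 in EPM, 11.23 and 11.00 in BMDM and 9.46 and 9.39 in B cells. Its level was 3.35-fold higher in EPM and 3.22-fold higher in BMDM than in B cells, and the EPM minus BMDM difference was 0.056 (95% interval -0.17 to 0.28). With the 12 h controls in place of the early ones, Ly96 was 1.73-fold higher in EPM and 1.40-fold higher in BMDM than in B cells (log2 differences 0.79 and 0.49), and Cd14 was 40.8-fold higher in EPM than in B cells and 4.28-fold lower than in BMDM. The 12 h B cell control in these comparisons is an array of unsettled label. Ly96 averaged 10.63 in it, against 9.70 in the array labelled B cell KLA 1 h. Cd14 in B cells lay close to background, where the lowest signals well above it ranged from 5.44 to 6.16 over the channels. With a smaller background offset the Cd14 differences from B cells were 6.75 in EPM and 7.95 in BMDM. On the scanner's processed signal the Cd14 differences from B cells were 7.42 and 8.69 and those of Tlr4 3.35 and 3.38, and with the mean of both Tlr4 probes those of Tlr4 were 1.27 and 1.24. In bulk samples, fewer cells of a type and less RNA per cell cannot be told apart. The summed level of the macrophage markers ran from 11.39 to 12.69 in the B cell groups, against 18.84 to 19.04 in BMDM and 18.88 to 18.98 in EPM, and the part of residual macrophages in the B cell values was not tested.

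The TLR2 family separated the 2 macrophage types. Tlr2 read 10.49 and 10.47 in EPM, 12.39 and 12.50 in BMDM and 8.90 and 8.88 in B cells, an order of BMDM, EPM and B cells in which no neighbours overlapped. EPM stood 3.91-fold below BMDM (log2 difference -1.97 (SE 0.051, adjusted p = 2.84e-16)) and 3.01-fold above B cells (adjusted p = 1.21e-15). With the 12 h controls, EPM stood 8.23-fold below BMDM and 1.20-fold above B cells (log2 differences -3.04 and 0.27). Tlr1, one of its partners, read 9.65 and 9.68 in EPM, 11.37 and 11.51 in BMDM and 10.10 and 10.01 in B cells. This was the 1 gene of the 10 with a lower level in EPM than in B cells, by 1.31-fold (log2 difference -0.38 (SE 0.072, adjusted p = 8.9e-05)), and EPM stood 3.42-fold below BMDM. With the 12 h controls, EPM stood 3.24-fold below B cells (log2 difference -1.70), and the BMDM minus B cell difference of Tlr1 was 0.032 (adjusted p = 0.694) rather than 1.39. The 12 h B cell control, used here for Tlr2, Tlr1 and Tlr6, is an array of unsettled label. Tlr1 averaged 11.40 in it, against 9.86 in the array labelled B cell KLA 1 h. Tlr6, the other partner, read 9.97 and 10.01 in EPM, 9.53 and 9.62 in BMDM and 7.57 and 7.58 in B cells, and here EPM was the highest, 1.33-fold above BMDM (adjusted p = 2.56e-05) and 5.33-fold above B cells (adjusted p = 6.75e-17). Against the 12 h B cell control, Tlr6 was 3.29-fold higher in 12 h DMSO of EPM and 2.57-fold higher in that of BMDM.

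Of the endosomal receptors, Tlr7 differed between all 3 cell types, and Tlr9 between EPM and B cells. Tlr7 read 10.87 and 10.85 in EPM, 12.08 and 12.12 in BMDM and 8.53 and 8.47 in B cells. BMDM exceeded EPM by 2.36-fold and B cells by 12.1-fold (adjusted p = 1.26e-09 and 3.73e-17), and EPM exceeded B cells by 5.14-fold. Between the 12 h controls, Tlr7 was 6.03-fold higher in BMDM and 2.75-fold higher in EPM than in B cells. The B cell control there is an array of unsettled label. Tlr7 averaged 9.05 in it, against 8.32 in the array labelled B cell KLA 1 h. Of 4 markers of plasmacytoid dendritic cells, a Tlr7- and Tlr9-rich cell type, Siglech was not well above background in any group, whereas Ccr9, Tcf4 and Bst2, an interferon-inducible gene, were so in every group (Bst2 from 10.97 to 16.55), and their part in these values was not tested. Tlr9 read 11.20 and 11.14 in EPM, 10.91 and 10.97 in BMDM and 10.69 and 10.78 in B cells, and the EPM minus B cell difference passed the test (0.44 (SE 0.10, adjusted p = 0.000644)). The EPM minus BMDM and BMDM minus B cell differences were 0.23 and 0.21 (adjusted p = 0.0602 and 0.0671), and with the dye as a block both passed (0.0107 and 0.0146).

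Tlr3 read 6.47 and 6.54 in EPM, 7.00 and 6.89 in BMDM and 5.82 and 5.99 in B cells, and in B cells it was not well above background in either replicate. The differences from B cells are therefore bounds, at least 1.33-fold for EPM and at least 1.80-fold for BMDM (adjusted p = 8.51e-07 and 3.97e-10). They were computed against the lowest signal well above background in a channel (or the probe's own signal where higher), which ranged from 5.44 to 6.16 over the 24 channels. With the 12 h controls, the EPM minus B cell difference turned to -0.24 (adjusted p = 0.00864), since Tlr3 read 6.63 and 6.67 in the array labelled B cell DMSO 12 h. This turn was not seen with a second Tlr3 probe. It averaged 6.32 in 12 h DMSO of EPM and 5.92 in that of B cells, where it was not well above background. Between the early controls, on the probe used, BMDM exceeded EPM by 0.44 (adjusted p = 8.14e-05). Tlr5, the flagellin receptor, lay close to background, at 6.57 and 6.60 in EPM, 7.20 and 7.29 in BMDM and 6.45 and 6.37 in B cells. BMDM exceeded EPM and B cells by 0.66 and 0.83 (adjusted p = 6.02e-08 and 7.76e-10), and on the scanner's processed signal the EPM minus BMDM and BMDM minus B cell differences were -1.32 and 1.97. The EPM minus B cell difference of 0.17 (adjusted p = 0.02) did not pass without the Cy3 replicate of untreated EPM or of untreated B cells (adjusted p = 0.0888 and 0.148).

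**Figure D1:**
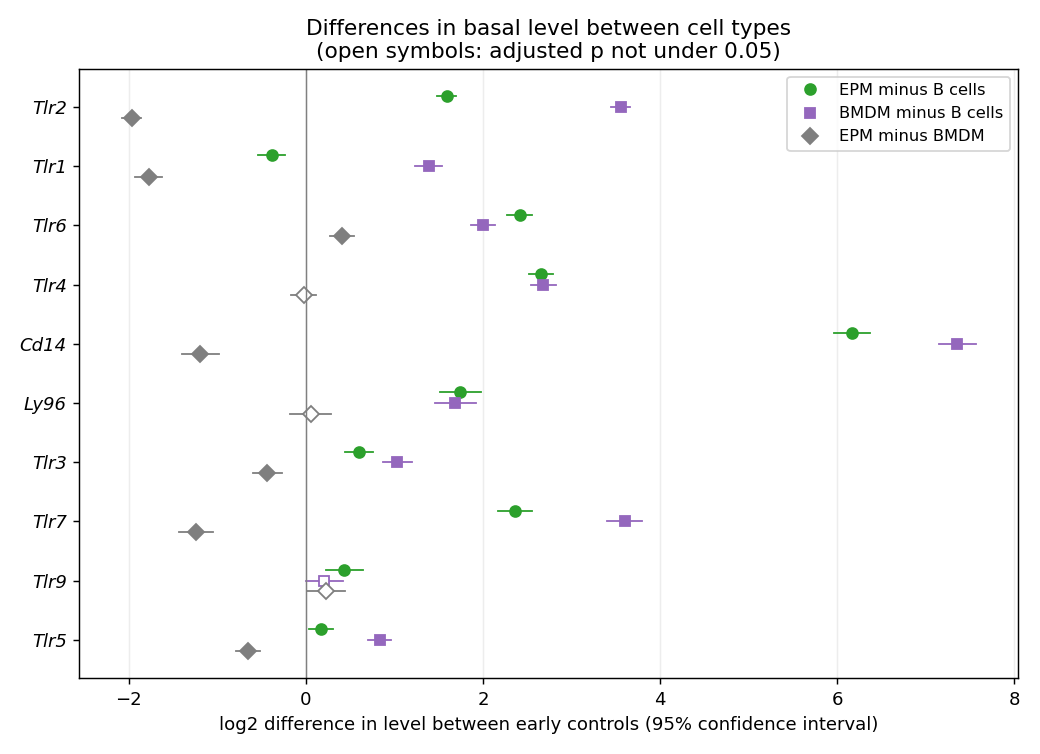
Log2 difference in level between the early controls of EPM and B cells, BMDM and B cells, and EPM and BMDM (x axis) for each of the 10 genes (y axis), with lines for 95% intervals from limma and open symbols where the adjusted p was not under 0.05. Cd14 lies farthest from 0, at 6.17 and 7.36 against B cells, Tlr9 lies between 0.21 and 0.44 in all 3 comparisons, and Tlr2 lies at -1.97 for EPM minus BMDM, while the Tlr3 symbols against B cells are fitted values for a gene not well above background there.

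KLA raised most of the 10 genes in both macrophage types, a few within 1 h and more at 12 h. In EPM at 1 h, 5 genes rose and Tlr9 fell, against 29.1% of all genes changed (9.39% up and 19.7% down), and at 12 h 7 rose and 2 fell, against 53.9% (19.6% up and 34.4% down). In BMDM at 1 h, 3 rose and 7 did not pass the test, against 28.6% of all genes changed (11% up and 17.6% down), and at 12 h 7 rose and 2 fell, against 65% (28.6% up and 36.3% down). Changes of over 2-fold, all of them rises, were made by 2 genes in EPM and 2 in BMDM at 1 h (all genes, 2.09% and 2.02% in either direction) and by 6 and 4 at 12 h (all genes, 9.41% and 15.3%). The median change of the 10 genes was 0.29 and 0.15 at 1 h and 1.39 and 0.82 at 12 h in EPM and BMDM, against medians over all genes between -0.061 and -0.025.

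**Figure D2:**
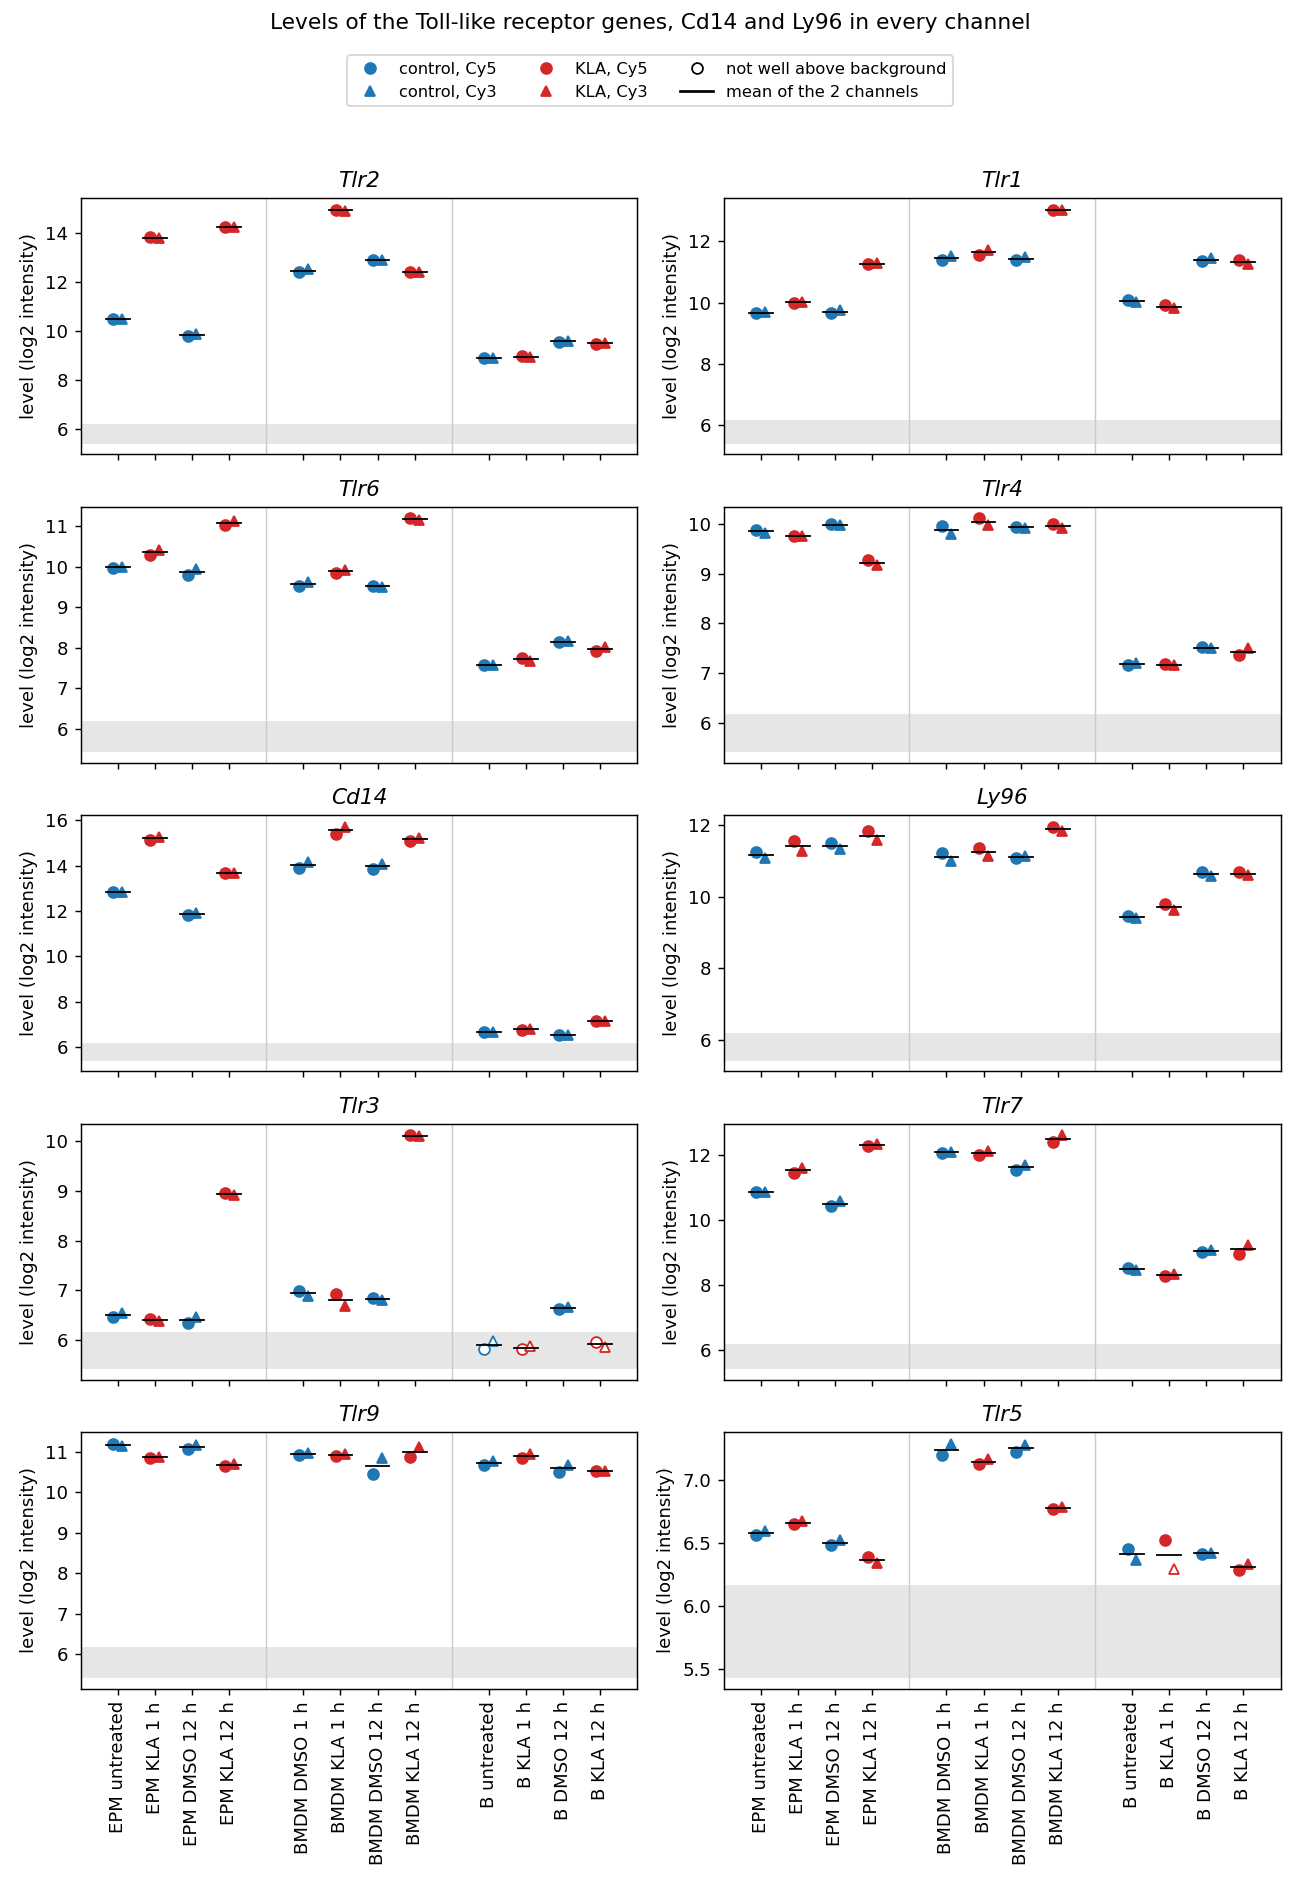
Log2 normalized intensity of each gene in the 12 groups, with 1 symbol per replicate (Cy5 and Cy3), a black line at the mean of the pair, open symbols where a replicate was not well above background, and a grey band from 5.44 to 6.16 for the lowest signals well above background in the 24 channels. Tlr2 in BMDM stands at 14.94 and 14.90 after 1 h of KLA and at 12.40 and 12.38 after 12 h, while in EPM it stands at 13.82 and 13.79 and then at 14.25 and 14.24.

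Tlr2 had the largest change of the 10 genes in EPM at both times, and in BMDM its rise did not last. In EPM, Tlr2 read 13.82 and 13.79 after 1 h of KLA against 10.49 and 10.47 in the early control, and 14.25 and 14.24 after 12 h of KLA against 9.80 and 9.87 in 12 h DMSO. Its rise was 3.32 at 1 h (10.0-fold, SE 0.051, adjusted p = 5.48e-19) and 4.41 at 12 h (21.3-fold, adjusted p = 3.56e-21). In BMDM, Tlr2 read 14.94 and 14.90 after 1 h of KLA against 12.39 and 12.50 in the early control, and 12.40 and 12.38 after 12 h of KLA against 12.88 and 12.87 in 12 h DMSO. It rose by 2.47 at 1 h (5.56-fold, SE 0.051, adjusted p = 4.77e-17) and fell by 0.49 at 12 h (1.40-fold, adjusted p = 1.26e-07). The EPM response exceeded the BMDM response by 0.85 at 1 h and by 4.90 at 12 h, and both differences passed the test of the difference (adjusted p = 2.06e-07 and 2.64e-18). At 1 h, 3 of the 10 responses differed between EPM and BMDM, against 9.57% of all genes, and at 12 h 9 of 10 did, against 47.8%. After KLA, EPM stood within the range of the BMDM groups, whose control values of 12.39 to 12.88 lay above the EPM control values of 9.80 to 10.49. The Tlr2 level rests on 8 to 10 spots per channel, whose SD was 0.041 to 0.159.

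Tlr1 and Tlr6, the partners of Tlr2, rose in both macrophage types at 12 h, Tlr6 by more in BMDM. In EPM, Tlr1 read 10.00 and 10.03 after 1 h of KLA against 9.65 and 9.68 in the early control, and 11.27 and 11.28 after 12 h of KLA against 9.67 and 9.75 in 12 h DMSO. In BMDM, Tlr1 read 11.56 and 11.72 after 1 h of KLA against 11.37 and 11.51 in the early control, and 13.03 and 13.03 after 12 h of KLA against 11.39 and 11.48 in 12 h DMSO. Each 12 h KLA pair lay above every other pair of its cell type, with rises of 1.56 in EPM (2.96-fold, SE 0.072, adjusted p = 1.28e-12) and 1.59 in BMDM (3.02-fold, adjusted p = 6.98e-13). The difference of these rises was -0.029 with a 95% interval of -0.24 to 0.19. At 1 h Tlr1 rose by 0.34 in EPM (adjusted p = 0.00127), and in BMDM the value of 0.20 just missed the threshold (adjusted p = 0.0509) and passed it with the dye as a block (0.0244). In EPM, Tlr6 read 10.28 and 10.43 after 1 h of KLA against 9.97 and 10.01 in the early control, and 11.03 and 11.13 after 12 h of KLA against 9.80 and 9.93 in 12 h DMSO. In BMDM, Tlr6 read 9.84 and 9.93 after 1 h of KLA against 9.53 and 9.62 in the early control, and 11.20 and 11.14 after 12 h of KLA against 9.53 and 9.5 in 12 h DMSO. It rose in all 4 comparisons, by 0.37 and 0.31 at 1 h (SE 0.065, adjusted p = 0.000249 and 0.00138) and by 1.21 and 1.66 at 12 h (adjusted p = 1.11e-11 and 7.86e-14) in EPM and BMDM. The 12 h rise was 0.45 smaller in EPM (adjusted p = 0.000576).

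Among the parts of the lipid A receptor, Cd14 rose early in both macrophage types, Ly96 rose late in BMDM, and Tlr4 fell in EPM at 12 h. In EPM, Cd14 read 15.13 and 15.28 after 1 h of KLA against 12.82 and 12.83 in the early control, and 13.69 and 13.65 after 12 h of KLA against 11.84 and 11.92 in 12 h DMSO. In BMDM, Cd14 read 15.39 and 15.71 after 1 h of KLA against 13.89 and 14.15 in the early control, and 15.09 and 15.23 after 12 h of KLA against 13.86 and 14.09 in 12 h DMSO. Its rise was 2.38 in EPM (5.20-fold, SE 0.098, adjusted p = 1.18e-12) and 1.53 in BMDM (2.89-fold, adjusted p = 7.86e-10) at 1 h, and 1.79 and 1.18 at 12 h (adjusted p = 1.68e-11 and 4.28e-09). The EPM response was the larger by 0.85 at 1 h and 0.61 at 12 h (adjusted p = 0.000389 and 0.00149). The 12 h response was 0.59 below the 1 h response in EPM (adjusted p = 0.00192), and 0.35 below it in BMDM (adjusted p = 0.0416), a call that was lost without any of 4 BMDM replicates, 1 of each group (adjusted p of 0.146 to 0.263).

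In EPM, Tlr4 read 9.75 and 9.76 after 1 h of KLA against 9.87 and 9.82 in the early control, and 9.27 and 9.17 after 12 h of KLA against 9.99 and 9.97 in 12 h DMSO. In BMDM, Tlr4 read 10.11 and 9.98 after 1 h of KLA against 9.95 and 9.79 in the early control, and 10.00 and 9.91 after 12 h of KLA against 9.94 and 9.91 in 12 h DMSO. The EPM values after 12 h of KLA were the lowest among the macrophage groups, and the fall was 0.76 (1.69-fold, SE 0.066, adjusted p = 1.28e-08). The 12 h change in BMDM was 0.033 with a 95% interval of -0.11 to 0.17, and the 2 responses differed (adjusted p = 1.38e-06). With no normalization between arrays, which shifted the median of all genes by -0.11 in this comparison, the BMDM value was -0.29 (adjusted p = 0.000691). At 1 h the values were -0.088 in EPM and 0.17 in BMDM (adjusted p = 0.36 and 0.0586), and the latter passed with the dye as a block (0.0279). A second probe named Tlr4 on the array was not well above background in any of the 24 channels. In EPM, Ly96 read 11.55 and 11.27 after 1 h of KLA against 11.25 and 11.09 in the early control, and 11.83 and 11.57 after 12 h of KLA against 11.50 and 11.34 in 12 h DMSO. In BMDM, Ly96 read 11.35 and 11.15 after 1 h of KLA against 11.23 and 11.00 in the early control, and 11.95 and 11.83 after 12 h of KLA against 11.08 and 11.14 in 12 h DMSO. Its 12 h rise was 0.78 in BMDM (1.71-fold, SE 0.11, adjusted p = 4.49e-06) and 0.28 in EPM (adjusted p = 0.0367). The EPM rise was lost without the Cy3 replicate of DMSO 12 h or the Cy5 replicate of KLA 12 h (adjusted p = 0.238 and 0.354). At 1 h the values were 0.24 and 0.13 in EPM and BMDM (adjusted p = 0.117 and 0.426), and the EPM value passed with the dye as a block (0.00465). The 12 h response of Ly96 minus its 1 h response was 0.043 in EPM and 0.65 in BMDM (limma, adjusted p = 0.853 and 0.00155).

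The endosomal receptors Tlr3 and Tlr7 rose at 12 h in both macrophage types, and Tlr9 moved in opposite directions in them. In EPM, Tlr3 read 6.44 and 6.39 after 1 h of KLA against 6.47 and 6.54 in the early control, and 8.96 and 8.92 after 12 h of KLA against 6.36 and 6.47 in 12 h DMSO. In BMDM, Tlr3 read 6.94 and 6.69 after 1 h of KLA against 7.00 and 6.89 in the early control, and 10.11 and 10.10 after 12 h of KLA against 6.85 and 6.81 in 12 h DMSO. Only the 12 h KLA pairs stood apart, and the rise was 2.53 in EPM (5.78-fold, SE 0.076, adjusted p = 2.29e-15) and 3.28 in BMDM (9.69-fold, adjusted p = 5.25e-17), the largest change of the 10 genes there. The size of the Tlr3 rise depended on the background correction, at 3.17 in EPM with a smaller offset and at 4.39 in EPM (21.0-fold) and 4.25 in BMDM (19.0-fold) on the scanner's processed signal. The second Tlr3 probe gave 2.43 and 3.25. At 1 h the values were -0.094 and -0.13 (adjusted p = 0.405 and 0.228). The 12 h rise was 0.74 larger in BMDM (adjusted p = 1.7e-05), but on the scanner's processed signal the difference had the opposite sign (0.14, adjusted p = 0.668).

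In EPM, Tlr7 read 11.45 and 11.61 after 1 h of KLA against 10.87 and 10.85 in the early control, and 12.30 and 12.34 after 12 h of KLA against 10.43 and 10.58 in 12 h DMSO. In BMDM, Tlr7 read 12.00 and 12.14 after 1 h of KLA against 12.08 and 12.12 in the early control, and 12.41 and 12.61 after 12 h of KLA against 11.56 and 11.72 in 12 h DMSO. It rose in EPM by 0.67 at 1 h and 1.81 at 12 h (3.52-fold, SE 0.092, adjusted p = 5.18e-12), and in BMDM by 0.87 at 12 h (1.83-fold, adjusted p = 1.19e-07), while its 1 h value in BMDM was -0.032 (adjusted p = 0.849). The EPM response was larger at both times, by 0.70 and 0.94 (adjusted p = 0.00127 and 9.3e-06). In EPM, Tlr9 read 10.86 and 10.88 after 1 h of KLA against 11.20 and 11.14 in the early control, and 10.65 and 10.71 after 12 h of KLA against 11.08 and 11.16 in 12 h DMSO. In BMDM, Tlr9 read 10.90 and 10.95 after 1 h of KLA against 10.91 and 10.97 in the early control, and 10.88 and 11.12 after 12 h of KLA against 10.45 and 10.85 in 12 h DMSO. At 12 h it fell by 0.44 in EPM (SE 0.10, adjusted p = 0.00107) and rose by 0.35 in BMDM (adjusted p = 0.00483), and the 2 responses differed (adjusted p = 0.000158). The BMDM rise was lost without the Cy5 replicate of DMSO 12 h or the Cy3 replicate of KLA 12 h (adjusted p = 0.181 and 0.0966) and with no normalization between arrays (0.332). The 1 h fall in EPM was 0.30 (adjusted p = 0.0307) and was lost without any 1 of the 4 replicates compared (adjusted p of 0.0744 to 0.146). In BMDM at 1 h the value was -0.018 (adjusted p = 0.925).

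Tlr5 stayed near background throughout. In EPM, Tlr5 read 6.65 and 6.67 after 1 h of KLA against 6.57 and 6.60 in the early control, and 6.39 and 6.34 after 12 h of KLA against 6.48 and 6.52 in 12 h DMSO. In BMDM, Tlr5 read 7.12 and 7.17 after 1 h of KLA against 7.20 and 7.29 in the early control, and 6.77 and 6.79 after 12 h of KLA against 7.22 and 7.27 in 12 h DMSO. It fell by 0.47 in BMDM at 12 h (1.39-fold, SE 0.064, adjusted p = 3.26e-06), and the other macrophage values did not pass the test, at 0.079 and -0.14 in EPM and -0.097 in BMDM at 1 h. The 12 h responses of EPM and BMDM differed by 0.34 (adjusted p = 0.0054).

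**Figure D3:**
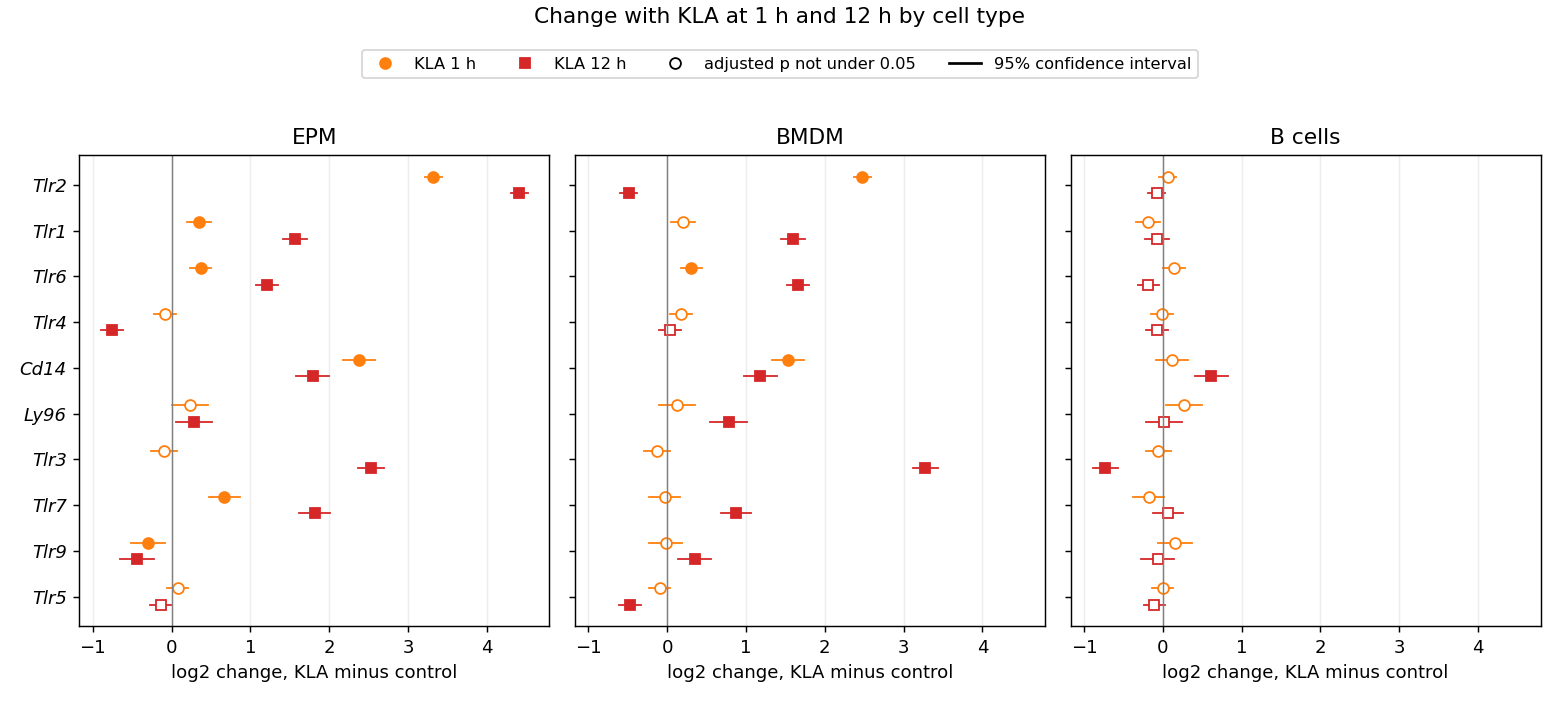
Log2 change after KLA against the control in EPM, BMDM and B cells at 1 h and 12 h for the 10 genes, with 95% intervals from limma. The control was untreated cells for EPM and B cells at 1 h, and DMSO of the same time otherwise. Tlr2 changes by 3.32 and 4.41 in EPM and by 2.47 and -0.49 in BMDM, Tlr3 by 2.53 and 3.28 at 12 h, and the B cell values of the other 9 genes, drawn as labelled, lie between -0.19 and 0.61, while the B cell symbol of Tlr3 at 12 h is a fitted value for a fall given as a bound.

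The timing of the responses was compared directly as the 12 h response minus the 1 h response. In EPM, 7 of the 10 responses differed between the times, against 43.7% of all genes, and in BMDM 9 did, against 54.4%. In both macrophage types the 12 h response was the larger for Tlr1 (1.22 and 1.40), Tlr3 (2.63 and 3.41), Tlr6 (0.85 and 1.35) and Tlr7 (1.14 and 0.90). For Tlr2 the sign of the difference was opposite, 1.09 in EPM and -2.96 in BMDM (adjusted p = 5.96e-10 and 5.85e-16). Tlr4 in EPM (-0.67) and Tlr5 in BMDM (-0.37) had the lower response at 12 h, and Ly96 in BMDM the higher (0.65).

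The controls themselves moved between the early and the 12 h arrays. In EPM, 3 of 10 genes were lower in 12 h DMSO than untreated, against 19.1% of all genes in either direction. They were Cd14 by 0.95, Tlr2 by 0.64 and Tlr7 by 0.36 (adjusted p = 1.43e-06, 5.8e-08 and 0.00962), and the last was lost without the Cy5 replicate of either group (0.0645 and 0.121). In BMDM, 3 of 10 differed, against 23.2% of all genes: Tlr2 was higher at 12 h by 0.43, and Tlr7 and Tlr9 were lower by 0.46 and 0.29 (adjusted p = 6.61e-06, 0.00114 and 0.0415). Without the Cy5 replicate of DMSO 12 h the Tlr9 difference was -0.090 (adjusted p = 0.595). Neutrophil markers, summed, ranged from 13.39 to 14.48 in the BMDM groups and from 10.04 to 10.93 in EPM. The higher BMDM sums were those after KLA (14.48 at 1 h and 14.37 at 12 h). The BMDM sum was carried by S100a9 (13.01 in DMSO 12 h and 14.04 in KLA 12 h). The median of the 6 markers was 8.89 in DMSO 12 h and 8.93 in KLA 12 h, and at 1 h it was also higher after KLA. At 12 h Mpo was lower after KLA (8.82 in DMSO and 8.12 in KLA), and the other markers were higher. The part of neutrophils in the BMDM values was not tested.

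In B cells, as labelled, almost none of the 10 genes changed with KLA. At 1 h, 0 of 10 passed the adjusted test in limma, against 5.17% of all genes (2.72% up, 2.45% down and 0.248% over 2-fold), and 3 had an unadjusted p under 0.05. At 12 h, Cd14 rose and Tlr3 fell, against 5.29% of all genes (2.81% up, 2.48% down and 0.386% over 2-fold). Cd14 read 6.66 and 6.66 untreated, 6.74 and 6.81 in KLA 1 h, 6.54 and 6.51 in DMSO 12 h and 7.15 and 7.14 in KLA 12 h, so that the KLA 12 h pair lay above the others, with a rise of 0.61 (1.53-fold, SE 0.098, adjusted p = 0.000423). Tlr3 read 5.82 and 5.99 untreated, 5.82 and 5.88 in KLA 1 h, 6.63 and 6.67 in DMSO 12 h and 5.97 and 5.87 in KLA 12 h and was well above background only in DMSO 12 h. The fall after 12 h of KLA is therefore a bound of at least 1.50-fold (adjusted p = 2.82e-06). The second Tlr3 probe was not well above background in any B cell channel and gave a 12 h change of 0.05 (adjusted p = 0.697).

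For the other genes the B cell values fell into a lower pair of early groups and a higher pair of 12 h groups, or did not separate. Tlr2 read 8.90 and 8.88 untreated, 8.99 and 8.91 in KLA 1 h, 9.54 and 9.59 in DMSO 12 h and 9.48 and 9.51 in KLA 12 h. Tlr1 read 10.10 and 10.01 untreated, 9.92 and 9.81 in KLA 1 h, 11.34 and 11.47 in DMSO 12 h and 11.40 and 11.24 in KLA 12 h. Tlr6 read 7.57 and 7.58 untreated, 7.76 and 7.67 in KLA 1 h, 8.14 and 8.16 in DMSO 12 h and 7.92 and 8.01 in KLA 12 h. In all 3 the KLA 1 h array lay near untreated, and the DMSO 12 h array near KLA 12 h. Tlr4 read 7.16 and 7.21 untreated, 7.19 and 7.16 in KLA 1 h, 7.52 and 7.50 in DMSO 12 h and 7.36 and 7.51 in KLA 12 h. Ly96 read 9.46 and 9.39 untreated, 9.78 and 9.62 in KLA 1 h, 10.68 and 10.57 in DMSO 12 h and 10.68 and 10.61 in KLA 12 h. Both parts of the lipid A receptor followed the same order. Tlr7 read 8.53 and 8.47 untreated, 8.29 and 8.35 in KLA 1 h, 9.01 and 9.08 in DMSO 12 h and 8.97 and 9.25 in KLA 12 h. Tlr9 read 10.69 and 10.78 untreated, 10.84 and 10.94 in KLA 1 h, 10.51 and 10.67 in DMSO 12 h and 10.52 and 10.54 in KLA 12 h. Tlr5 read 6.45 and 6.37 untreated, 6.53 and 6.29 in KLA 1 h, 6.41 and 6.42 in DMSO 12 h and 6.29 and 6.33 in KLA 12 h. Tlr9 and Tlr5 showed no such step, and the Cy3 replicate of Tlr5 in KLA 1 h was not well above background. With the dye as a block, Ly96 at 1 h (0.27, adjusted p = 0.00645) and Tlr6 at 12 h (-0.18, adjusted p = 0.0403) also passed.

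As labelled, 7 of the 10 genes were higher in B cells in DMSO 12 h than untreated, against 47.4% of all genes in either direction. They were Tlr1 by 1.35, Ly96 by 1.20, Tlr2 by 0.68, Tlr6 by 0.58, Tlr7 by 0.55, Tlr4 by 0.33 and, on the probe used, Tlr3 by at least 1.47-fold (adjusted p of 3.52e-11 to 0.000414). The summed macrophage markers moved with them, from 11.39 untreated and 11.57 in KLA 1 h to 12.69 in DMSO 12 h and 12.50 in KLA 12 h, a sum carried by Ctsd (10.66 untreated and 11.87 in DMSO 12 h) and Emr1 (7.52 and 10.88). The median of the 9 markers was 6.45 untreated and 6.27 in DMSO 12 h, Cd68 read 7.82 and 7.39 and Csf1r 6.45 and 6.27, Itgam, Fcgr1 and Msr1 were not well above background in any B cell group, and the part of macrophages was not tested. With the KLA 1 h and DMSO 12 h labels exchanged, the same 7 rises belong to KLA at 1 h (all genes, 25% up and 22.4% down), and 0 of 10 genes separated the controls. At 12 h, 7 genes then rose and 1 fell, against 49.1% of all genes (24.8% up and 24.4% down). The rises were led by Tlr1 (1.46), Ly96 (0.94) and Tlr7 (0.79), and Tlr9 fell by 0.36 (adjusted p = 0.00593). The rise of Cd14 at 12 h passed under both assignments (0.61 as labelled and 0.37 exchanged, adjusted p = 0.000423 and 0.00429), and on the scanner's processed signal it was 1.36 as labelled. The B cell values of Cd14 lay close to background. For Tlr3 at 12 h, neither group compared with labels exchanged was well above background. The rise of Tlr3 among the 7 was not seen with the second Tlr3 probe. That probe averaged 6.05 untreated and 5.92 in DMSO 12 h and was not well above background in either. Which of these assignments is right was not tested.

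**Figure D4:**
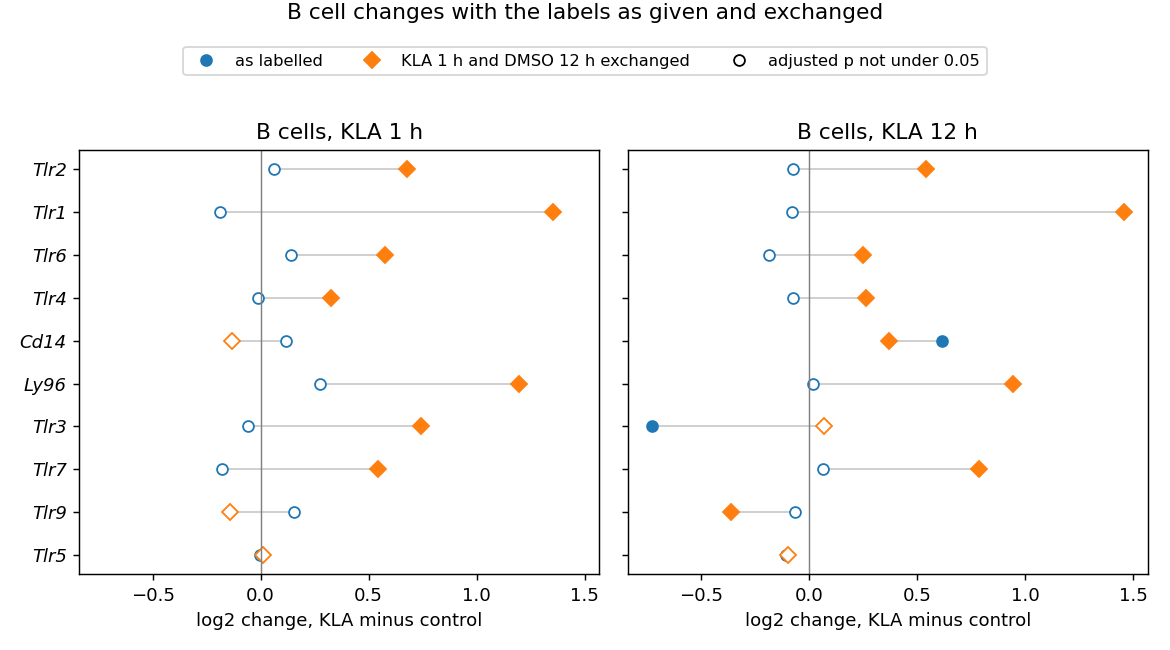
Log2 change after KLA in B cells for the 10 genes at 1 h and 12 h, as labelled and with the KLA 1 h and DMSO 12 h labels exchanged. At 1 h the values as labelled lie near 0 and Tlr1 moves from -0.19 to 1.35 on exchange, while Cd14 at 12 h is 0.61 and 0.37. The Tlr3 symbols are fitted values for a gene well above background in 1 B cell group alone.

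The macrophage response, as the mean of EPM and BMDM, was compared with the B cell response. At 1 h, 4 of 10 responses differed, against 21.9% of all genes, with Tlr2 2.84 and Cd14 1.84 larger in macrophages (adjusted p = 1.91e-16 and 1.54e-09). At 12 h, 9 of 10 differed, against 55.8%, among them Tlr2 (2.04), Tlr1 (1.66), Tlr6 (1.62) and Tlr7 (1.28). The Tlr2 mean joins 4.41 in EPM with -0.49 in BMDM, and the BMDM value lay below the B cell response of -0.075. The mean of Tlr9, which was not called, joins -0.44 in EPM with 0.35 in BMDM. Tlr3 also passed, but with B cell KLA 12 h values not well above background its difference has no measured size. The Cd14 difference (0.87) was lost on the scanner's processed signal (0.12, adjusted p = 0.461). Within B cells, 3 of 10 responses differed between 12 h and 1 h, against 7.55% of all genes, namely Tlr6 (-0.33), Cd14 (0.50) and Tlr3, which was lower at 12 h by an amount without a measured size, since 3 of its 4 B cell groups were not well above background. The Cd14 call was lost without any 1 of the 8 replicates (adjusted p of 0.0601 to 0.122) and that of Tlr6 without any of 6 of them (0.0694 to 0.149). With B cell labels exchanged, the 1 h difference for Tlr1 was -1.08 in place of 0.46, whereas those for Tlr2 and Cd14 were 2.22 and 2.08. At 12 h those for Tlr1, Tlr2 and Tlr7 were then 0.12 (adjusted p = 0.247), 1.42 and 0.55.

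The genes around the receptors were counted by role. Of the pathway, 21 adaptors, kinases and transcription factors were tested. In EPM at 1 h, 5 rose and 4 fell (all genes, 9.39% up and 19.7% down). In EPM at 12 h, 11 rose and 3 fell (all genes, 19.6% and 34.4%). In BMDM at 1 h, 4 rose and 5 fell (all genes, 11% and 17.6%). In BMDM at 12 h, 13 rose and 5 fell (all genes, 28.6% and 36.3%). At 1 h the largest rise in both was that of Ticam1, which encodes the adaptor TRIF (0.52 in EPM and 0.96 in BMDM), and the largest falls were Map3k7ip1 in EPM (-0.84) and the adaptor Tirap in BMDM (-0.67). At 12 h it was Irf7, an interferon regulatory factor (5.64 and 4.08), and the largest fall was the kinase Irak1 (-0.75 and -0.73). Against the same shares of all genes, 9 negative regulators were tested. In EPM 3 rose and 0 fell at 1 h, and 5 rose and 3 fell at 12 h. In BMDM 2 rose and 2 fell at 1 h, and 4 rose and 3 fell at 12 h. Tnfaip3, which encodes the ubiquitin-editing enzyme A20, led at 1 h (4.28 in EPM and 4.40 in BMDM), and Socs1, a suppressor of cytokine signalling, at 12 h (3.70 and 4.91). Inpp5d, which encodes the phosphatase SHIP, fell most in EPM at 12 h (-0.82) and in BMDM at 1 h (-0.24), and Sigirr, an inhibitory receptor of the family, fell most in BMDM at 12 h (-1.46).

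Of 8 chaperones and accessory proteins tested, 0 rose and 1 fell at 1 h in EPM and in BMDM, and 2 rose and 5 fell at 12 h in each. The gene that fell at 1 h was in both cases Cd36, a scavenger receptor that assists TLR2 (-0.32 in EPM and -0.23 in BMDM), and it fell most in EPM at 12 h (-1.47), while Lrrc33 fell most in BMDM at 12 h (-0.97). Ly86, which encodes MD-1, the partner of the TLR4-related receptor CD180, rose most at 12 h (1.63 and 1.94). Tlr8 was the 1 other Tlr gene listed with a probe of that name, and it rose by 1.38 in BMDM at 12 h. In B cells, as labelled, these lists together held 1 change at 1 h and 4 at 12 h (all genes changed, 5.17% and 5.29%). With the B cell labels exchanged, 47.4% and 49.1% of all genes changed, and the lists were not counted. At 1 h, 9.39% of all genes rose and 19.7% fell in EPM, and 11% and 17.6% in BMDM. At 12 h, 19.6% rose and 34.4% fell in EPM, and 28.6% and 36.3% in BMDM.

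The genes with the most similar pattern were found by Pearson correlation of log2 levels over the 12 group means. These means share slides by cell type, and whether values near 1 follow the cell types or KLA was not tested. Tlr2 was followed most closely by Ralgds and Mdm2 (r of 0.96 for both). For Tlr3 they were Piwil4 and Tmem67 (0.99 and 0.98), and for Tlr7 the interferon-inducible genes Rtp4 and Oasl2 (0.99 and 0.99). Tlr4 was matched by Arhgef10l and Apob48r, Cd14 by Sart2 and Lcp2, Ly96 by Vti1a and Ift88, Tlr1 by Polb and Capns2, Tlr6 by Prdx5 and 2210409B22Rik, and Tlr5 by Calml4 and Centd3 (r of 0.94 to 1.00). Tlr9 had no close match, with 1700129I15Rik at 0.87 and Pex11c at 0.86. Among the 10 genes, Tlr7 and Cd14 were the most alike (r of 0.96) and Tlr1 and Tlr9 the least (r of -0.29).

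The change calls were also made with each array's mean as 1 sample and the early and 12 h controls of a cell type as replicates, which counts the spread between control arrays. This fit had 3 residual degrees of freedom, from the control pairs of all cell types together. The B cell pair includes the DMSO 12 h array of unsettled label, so the macrophage calls depend on it too. For Tlr1, the early and 12 h controls averaged 9.67 and 9.71 in EPM and 11.44 and 11.44 in BMDM. In B cells they averaged 10.05 and 11.40. Then Tlr2 at 1 h (3.64) and Tlr2, Tlr3, Tlr6 and Tlr7 at 12 h (4.09, 2.48, 1.15 and 1.64) passed in EPM, and Tlr3, Tlr5 and Tlr6 at 12 h (3.22, -0.47 and 1.63) passed in BMDM (adjusted p of 0.00426 to 0.0466). In BMDM at 1 h and in B cells at both times 0 of 10 passed in limma with this fit, and 2 genes in BMDM at 1 h and 0 in B cells at either time had an unadjusted p under 0.05. Of all genes, 0.94% and 11.5% passed with this fit in EPM, 0.577% and 21% in BMDM, and 0.0807% and 0% in B cells at 1 h and 12 h.

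The probes used lie, in mm8 coordinates of the scanner files, at chr5:65204011-65204070 for Tlr1, chr3:83922349-83922408 for Tlr2, chr8:46895472-46895531 for Tlr3, chr4:66329051-66329109 for Tlr4, chr1:184812746-184812805 for Tlr5, chr5:65232261-65232320 for Tlr6, chrX:162649362-162649421 for Tlr7 and chr9:106084749-106084808 for Tlr9. The Ly96 probe spans chr1:16691422-16694694, a span longer than a probe. No annotation of this build was used here, so exons were not assigned.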

How the data were processed

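Total RNA of the 24 samples was labelled and hybridised by the authors to 12 Agilent arrays on 3 slides. The authors deposited, from Feature Extraction 9.5.3.1, the scanner intensity of each spot (mean signal, median background and processed signal), and for 38516 probes a table of normalized intensity, whose normalization is not given in the sources used here and whose scale was taken as linear. Groups were taken from the sample labels.

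Intensities were corrected with normexp (offset 50), controls were left out, arrays were normalized with loess within and Aquantile between arrays, and single channels were taken to log2 in limma 3.58.1 (R 4.3.3). Outlier spots were set missing, spots of a probe averaged, and each gene read from its probe with the highest mean over the 24 channels. After this, 131 values of the genes tested were missing. Genes whose probe stood well above background in the pair of channels of 1 or more groups were tested (17345) by lmFit and eBayes with 1 coefficient per group and 12 residual degrees of freedom, and p-values were adjusted by the Benjamini-Hochberg method over all genes tested, with a threshold of 0.05. SE and 95% intervals are from this fit, so p-values measure the spread between the channels of an array. On simulated data for EPM at 1 h (17239 genes), 99 of 100 genes changed 2-fold, 100 of 100 changed 4-fold and 15 unchanged genes were called. The simulated noise was drawn from the SD between the channels of a group. No differences between arrays were simulated, so these counts leave out errors between arrays. The difference between Cy5 and Cy3 correlated between all 66 pairs of arrays (r of 0.26 to 0.63), so the dye named in the labels pairs the channels and was fitted as a block in an alternative.

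The 10 genes and the lists of pathway and marker genes were chosen with earlier results of these data known. All 10 genes are named, and of each list the gene with the largest rise and the largest fall past the threshold in EPM and BMDM at each time. Alternatives were other background corrections and normalizations, the authors' table, other filters and probe choices, other sets of samples, each replicate left out, and exchanged B cell labels. Where a probe was not well above background in 1 group, a fold is a bound. Promoter letters were searched in RefSeq sequences with Python 3.11.15.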

Additional observations from a re-analysis of the deposited data

Results flagged for a closer look

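Differences between KLA responses that passed the limma test of the difference itself are collected here, as log2 differences of responses.

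Between EPM and BMDM, with EPM minus BMDM, 3 genes differed at 1 h: 0.85 for Tlr2, 0.70 for Tlr7 and 0.85 for Cd14 (adjusted p of 2.06e-07 to 0.00127). At 12 h 9 genes differed: 4.90 for Tlr2, -0.74 for Tlr3, -0.79 for Tlr4, 0.34 for Tlr5, -0.45 for Tlr6, 0.94 for Tlr7, -0.79 for Tlr9, 0.61 for Cd14 and -0.50 for Ly96 (adjusted p of 2.64e-18 to 0.0127). At 12 h Tlr2 and Tlr9 were called in opposite directions, Tlr4 was called in EPM alone and Tlr5 in BMDM alone. The Ly96 difference was lost without any of 3 replicates of 12 h groups, the Cy5 replicate of EPM DMSO, the Cy3 replicate of EPM KLA and the Cy5 replicate of BMDM KLA (adjusted p of 0.0525 to 0.0774).

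Between the macrophage mean and B cells as labelled, with macrophages minus B cells, 4 genes differed at 1 h: 0.46 for Tlr1, 2.84 for Tlr2, 0.50 for Tlr7 and 1.84 for Cd14 (adjusted p of 1.91e-16 to 0.00317). At 12 h 9 genes differed: 1.66 for Tlr1, 2.04 for Tlr2, 3.63 for Tlr3, -0.29 for Tlr4, -0.20 for Tlr5, 1.62 for Tlr6, 1.28 for Tlr7, 0.87 for Cd14 and 0.51 for Ly96 (adjusted p of 4.59e-16 to 0.0406). For Tlr2 at 12 h the macrophage mean joins 4.41 in EPM with -0.49 in BMDM. That of Tlr4 at 12 h joins -0.76 in EPM with 0.033 in BMDM, against -0.076 in B cells. That of Tlr7 at 1 h joins 0.67 in EPM with -0.032 in BMDM. The Tlr5 difference was lost without any of 9 of the 12 replicates compared (adjusted p of 0.0528 to 0.126), and that of Tlr4 without the Cy3 replicate of B cell KLA 12 h (0.0526). The Tlr3 value has no measured size, since Tlr3 was not well above background in B cell KLA 12 h. All B cell values depend on which labels of the KLA 1 h and DMSO 12 h arrays are right.

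Between 12 h and 1 h, with the 12 h response minus the 1 h response, 7 genes differed in EPM: 1.22 for Tlr1, 1.09 for Tlr2, 2.63 for Tlr3, -0.67 for Tlr4, 0.85 for Tlr6, 1.14 for Tlr7 and -0.59 for Cd14 (adjusted p of 5.76e-13 to 0.00192). In BMDM 9 genes differed: 1.40 for Tlr1, -2.96 for Tlr2, 3.41 for Tlr3, -0.37 for Tlr5, 1.35 for Tlr6, 0.90 for Tlr7, 0.37 for Tlr9, -0.35 for Cd14 and 0.65 for Ly96 (adjusted p of 5.85e-16 to 0.0416). The Tlr9 difference in BMDM was lost without any of 6 of the 8 replicates compared (adjusted p of 0.0514 to 0.267). In B cells as labelled 3 genes differed: -0.67 for Tlr3, -0.33 for Tlr6 and 0.50 for Cd14 (adjusted p of 0.000465 to 0.0365), where the Tlr3 value is fitted to 3 groups of 4 not well above background and has no measured size. Each 12 h and 1 h response has its own control, and in EPM and B cells these controls differ in vehicle as well as in time.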

How the results depend on the processing

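The 10 genes were followed in 19 comparisons, and counts below are of genes past the threshold out of 10, or out of 8 in the authors' table, in which Tlr2 and Tlr4 were not used here. A value counted as kept if it stayed on its side of the threshold, with the same direction where the main fit or the alternative passed it. A change of sign between values that both did not pass was also counted as kept. Kept were 187 of 190 values with a smaller background offset, 178 of 190 with the scanner's processed signal, 188 of 190 with quantile normalization, 177 of 190 with no normalization between arrays, 190 of 190 with no filter, 186 of 190 with the mean of a gene's probes, 165 of 170 with only the cell types compared in the fit, 120 of 152 with the authors' table, 124 of 130 with changes centred on all genes, 25 of 30 with the 12 h controls, 29 of 60 with the B cell labels exchanged and 90 of 160 with array means as samples. With no normalization between arrays the median of all genes shifted by -0.11 in BMDM at 12 h and by 0.13 and 0.19 in the EPM and BMDM comparisons with B cells. Tlr3 values that involve B cells are fitted against signals not well above background. The precision is limited by 2 replicates per group, and for Tlr3, Tlr5 and the B cell values of Cd14 also by signals near background. The cause of each change below was not tested unless the setting itself states it.

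A limit of over 2-fold left 2 genes in EPM at 1 h, 4 in BMDM at 12 h and 0 in B cells at 12 h, 4 and 6 in the early controls of EPM against BMDM and B cells, 0 and 1 for responses of EPM against BMDM at 1 h and 12 h, 2 and 5 for macrophages against B cells, 4, 4 and 0 for the time differences in EPM, BMDM and B cells, and 0, 0 and 2 for the control arrays of the same cells. Array means as samples left 1 and 4 genes in EPM, 0 and 3 in BMDM and 0 at 12 h in B cells, 6 in the early controls of EPM against B cells, 0 and 0 for EPM against BMDM responses, 0 and 1 for macrophages against B cells, and 1, 2 and 0 for the time differences. There, Ly96 at 12 h for macrophages against B cells turned to -0.028, and Tlr3 and Tlr6 in the B cell time difference to 0.069 and 0.25.

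The replicate block with dye, which pairs the channels, raised BMDM at 1 h to 5 genes, as did the mean of probes and the centring on all genes, and B cells at 1 h to 1. Over all comparisons the block changed 12 of 190 values, each toward a call. Of those not given beside a result, Tlr4 passed for EPM against BMDM responses at 1 h, Tlr6 and Tlr9 for macrophages against B cells at 1 h, Tlr5 for the EPM time difference and Ly96 for the EPM controls (adjusted p of 0.0389, 0.0353, 0.0105, 0.0437 and 0.00505), and no other call changed. With no normalization between arrays B cells at 1 h had 1 gene, and Tlr4 in BMDM at 12 h turned to -0.29. The scanner's processed signal turned Tlr3 for EPM against BMDM at 12 h to 0.14. With the 12 h controls, of which the B cell array has an unsettled label, Tlr3 in EPM against B cells turned to -0.24 on the probe used.

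In the authors' table B cells had 5 and 6 genes, the BMDM controls 1, the B cell time difference 1 and the B cell controls 0. Its values turned to 1.31, 0.75 and 0.62 for Tlr1, Tlr3 and Tlr7 in B cells at 1 h, 1.43 and 0.36 for Tlr1 and Tlr6 at 12 h, -0.99, -0.28 and -0.21 for Tlr1, Tlr6 and Tlr7 in macrophages against B cells at 1 h, -0.24 for Ly96 at 12 h, and -0.22, -0.045 and -0.23 for Tlr1, Tlr3 and Tlr7 in the B cell controls. With the B cell labels exchanged, B cells had 7 and 8 genes, macrophages against B cells at 1 h 7 and the B cell controls 0. Tlr1, Tlr3, Tlr4 and Tlr7 in B cells at 1 h turned to 1.35, 0.74, 0.33 and 0.55, and Tlr1, Tlr2, Tlr3, Tlr4 and Tlr6 at 12 h to 1.46, 0.54, 0.069, 0.26 and 0.25. Tlr1, Tlr4, Tlr6 and Tlr7 in macrophages against B cells at 1 h turned to -1.08, -0.29, -0.24 and -0.23, Ly96 at 12 h to -0.42, and Tlr1, Tlr3, Tlr4 and Tlr7 in the B cell controls to -0.19, -0.057, -0.010 and -0.18.

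Leaving out each replicate in turn gave 5 to 6 and 8 to 9 genes in EPM, 4 to 5 and 8 to 9 in BMDM and 0 and 2 in B cells at 1 h and 12 h, 7, 9 to 10 and 9 for the early controls of EPM against BMDM, EPM against B cells and BMDM against B cells, 3 to 4 and 8 to 9 for EPM against BMDM responses, 4 to 5 and 7 to 9 for macrophages against B cells, 7, 7 to 8 and 1 to 2 for the time differences, and 2 to 3, 2 to 3 and 7 for the controls of EPM, BMDM and B cells.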
